A study of Mus musculus with 6 samples.

Results

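Interferon-stimulated effector genes encode the proteins that carry out the antiviral program of an interferon-treated cell, as opposed to those that sense nucleic acid or relay the signal. A list of 42 such mouse genes was examined by name, and sensors, STAT factors and class I antigen presentation genes were left out of it. Of these, 40 had a probe that could be matched, 38 passed a filter on dim probes, and the 16490 genes tested in the whole series served as background. The cells were neuro2a (N2a), a mouse neuroblastoma line, transfected with plasmids that express EmGFP and microRNA-type RNAi hairpins. Control cells received the empty vector. Knockdown cells received hairpins against both Nfya and Nfyc, which encode parts of NF-Y, a factor that binds the CCAAT motif of promoters. Each group had 3 single-colour Agilent arrays. The empty vector carries no hairpin against a gene, so loss of NF-Y and expression of the hairpins cannot be told apart in this comparison. The labels name no other treatment, and both groups share the line, the plasmid backbone and the transfection.

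Interferons bind paired receptors at the cell surface, and Janus kinases then phosphorylate STAT factors. Type I interferon leads to a complex that contains Irf9 and binds the interferon-stimulated response element (ISRE) of target promoters, whereas interferon gamma acts through gamma-activated sites (GAS). Some target genes are also bound by interferon regulatory factors directly, without a secreted interferon. The products range from ubiquitin-like modifiers and ADP-ribosyltransferases to RNA-binding proteins, GTPases that attack vacuoles, and membrane proteins that block entry or release of virus.

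To show the elements in question, the promoters of 8 of the members that hold an ISRE core before the start are given first. Among them are 5 genes that rose in knockdown (Isg15, Igtp, Gbp7, Gbp3, Rsad2), 2 that were not called (Ifit1, Irgm1) and the gene that fell (Bst2). Gbp2, Ifit3 and Ifitm2, which were not called, and Trim30a, which was not tested, also hold such a core but are not printed. The choice of these 8 therefore says nothing of how often risen and uncalled members hold one. Each line gives 140 bases before the annotated gene start, 5′ to 3′ on the strand of the gene, from RefSeq with build GRCm38.p6. Capitals mark matches to the ISRE core GAAANNGAAA on either strand, with overlapping matches merged. Gbp3 has 2 annotated starts, and the line belongs to the upstream one.
Isg15, chr4:156200819-156200958, minus strand: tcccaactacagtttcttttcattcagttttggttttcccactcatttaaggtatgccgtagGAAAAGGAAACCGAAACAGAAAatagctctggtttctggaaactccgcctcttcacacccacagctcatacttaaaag
Igtp, chr11:58199416-58199555, plus strand: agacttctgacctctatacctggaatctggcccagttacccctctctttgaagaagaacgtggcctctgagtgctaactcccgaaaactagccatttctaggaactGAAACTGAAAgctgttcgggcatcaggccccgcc
Gbp7, chr3:142530196-142530335, plus strand: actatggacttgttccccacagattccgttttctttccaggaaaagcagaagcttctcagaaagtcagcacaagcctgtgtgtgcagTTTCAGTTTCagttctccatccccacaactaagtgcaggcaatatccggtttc
Gbp3, chr3:142559904-142560043, plus strand: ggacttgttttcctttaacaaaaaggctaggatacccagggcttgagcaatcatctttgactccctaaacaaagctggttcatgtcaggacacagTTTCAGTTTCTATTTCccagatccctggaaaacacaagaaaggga
Rsad2, chr12:26456453-26456592, minus strand: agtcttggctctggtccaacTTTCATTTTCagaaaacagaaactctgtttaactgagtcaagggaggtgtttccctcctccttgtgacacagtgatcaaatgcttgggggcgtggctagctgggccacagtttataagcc
Ifit1, chr19:34640749-34640888, plus strand: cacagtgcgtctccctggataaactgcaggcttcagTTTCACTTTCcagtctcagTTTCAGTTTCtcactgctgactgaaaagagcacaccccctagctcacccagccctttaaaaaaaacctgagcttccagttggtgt
Irgm1, chr11:48871421-48871560, minus strand: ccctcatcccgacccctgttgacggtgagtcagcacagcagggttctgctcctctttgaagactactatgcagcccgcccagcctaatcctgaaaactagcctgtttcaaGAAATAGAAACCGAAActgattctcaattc
Bst2, chr8:71537473-71537612, minus strand: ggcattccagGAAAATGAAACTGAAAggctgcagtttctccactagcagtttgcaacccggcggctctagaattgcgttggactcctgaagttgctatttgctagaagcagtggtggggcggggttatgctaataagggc

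RefSeq gave windows of 250 bases before to 50 bases after the start for 33 of the 42 members. The ISRE core lay in the window of 14 of these 33 genes (42.4%), against 3.99% of 27025 genes with a window. The GAS letters TTCNNNGAA, searched on both strands and able to overlap an ISRE core, lay in 7 members (21.2%) against 9.55% of all genes. The CCAAT letters, also searched on both strands, lay in 8 members (24.2%) against 41.1% of all genes. The ISRE core was held by 5 of the 12 members with a window that rose (41.7%) and by 7 of the 18 that were not called (38.9%). Isg15 had 3 overlapping cores between bases -78 and -57 from the start, and Bst2 had 2 between bases -130 and -115. Neither of these promoters held CCAAT, whereas Gbp7, Ifit2 and Samd9l were the members that rose with CCAAT in a window. A match of letters is a description of the sequence and not evidence of a bound factor.

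**Figure D1:**
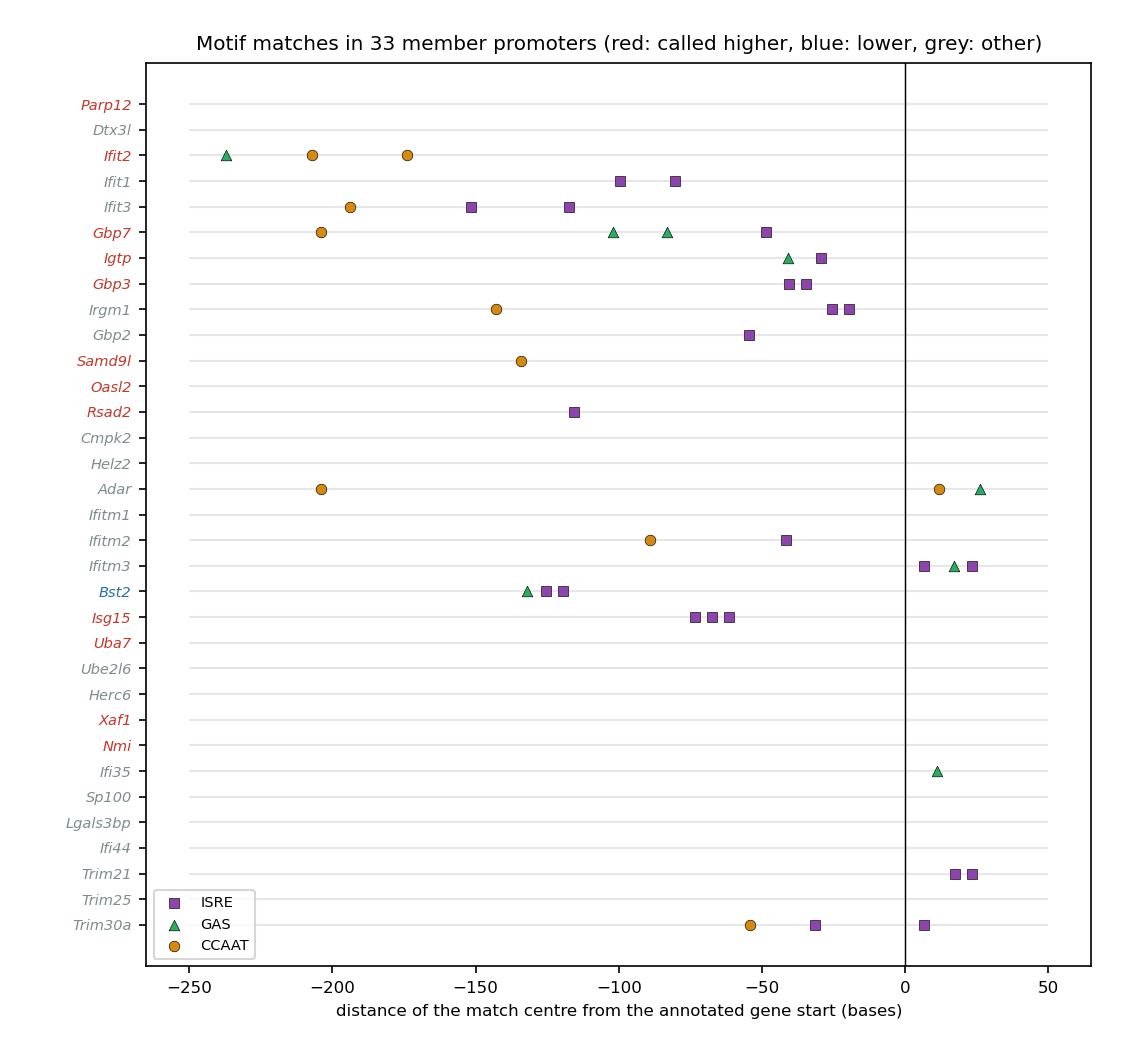
Positions of ISRE, GAS and CCAAT matches (symbols) from 250 bases before to 50 bases after the annotated start (x axis, bases) in 33 member promoters (y axis), with gene names in red for members called higher, blue for lower and grey for the others. ISRE cores lay in promoters of 5 members called higher, of 7 not called, and of Bst2, which fell.

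The arrays were compared before the members were read. Between 61.9% and 66.2% of the spots were well above background, and r over the tested probes lay between 0.987 and 0.994 for any pair of arrays. The 3 control arrays and knockdown array 1 lay in row 1 of the slide, and knockdown arrays 2 and 3 lay in row 2. Changes are therefore also given for row 1 alone. The targeted genes were lower in knockdown, by 0.76 for Nfya (log2 change -0.76, limma adjusted p 0.00128) and by 1.81 for Nfyc (log2 change -1.81, limma adjusted p 0.000323). Nfyb, which encodes the remaining NF-Y subunit and was not targeted, was called higher (log2 change 0.83, limma adjusted p 0.00131). Markers of neuroblastoma and neurons were bright, with 11 of 12 probes well above background on all 6 arrays and Nefl as the exception. None of the 11 tested was called by limma. By limma adjusted p below 0.05 alone, 2 were higher and 3 lower, against 15.7% and 15.8% of all genes tested. The sources used here do not say whether the 3 arrays of a group came from separate cultures, so p-values measure the spread between these samples. In RNA of whole cultures, fewer cells that express a gene and less of its RNA per cell cannot be told apart.

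Normalized signal is given throughout as log2 of the processed signal minus the 75th percentile of the array, so that 0 is a bright probe. Probes differ in how they bind, and their signals were compared between arrays but not between genes. A change is knockdown minus control on that log2 scale, with its standard error (SE). A gene was called when its limma p, adjusted by Benjamini-Hochberg over all 42126 probes tested, was below 0.05 and its fold change above 1.5. By that rule 14 of the 38 tested members rose (36.8%), against 3.91% of all genes tested, and only Bst2 fell (2.63%), against 5% of all genes tested. The median change of the tested members was 0.47, against 0.0053 for all genes. The change was positive for 30 members and negative for 8. All 3 knockdown arrays lay above all control arrays for 26 members (27.7% of all genes tested) and below them for 5 (27.1% of all genes tested).

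The 4 members without a test are accounted for as follows. Mx1 and Mx2, the Mx GTPases, had no probe that could be matched by accession. Ifi44 and Trim30a did not pass the filter on dim probes, and their probes stood well above background on no array. Of the 38 tested members, 37 reached the filter in both groups and Ifit3 reached it only in knockdown. Probes of 31 members were well above background on all 6 arrays. Among these 31, 11 rose (35.5%) and 1 fell (3.23%), against 3.73% and 5.36% of the 13976 genes with such probes.

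**Figure D2:**
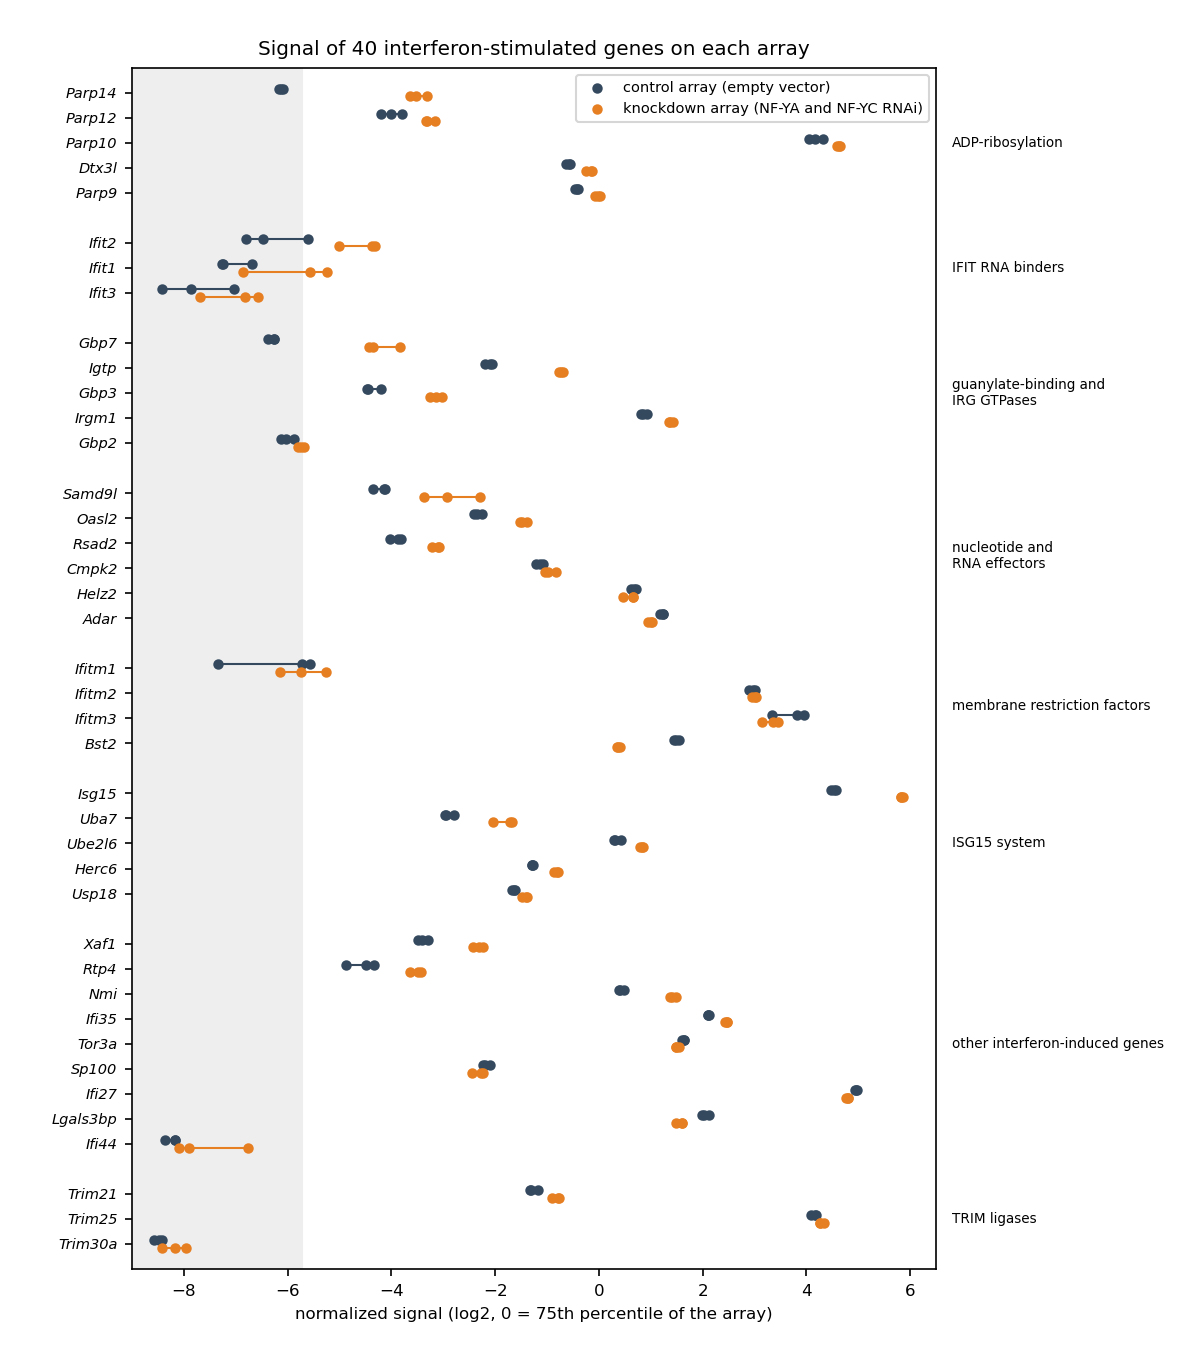
Normalized signal (x axis, log2, 0 at the 75th percentile of the array) of 40 members (y axis, grouped by role) on each control array (dark points) and knockdown array (orange points), with lines from the lowest to the highest array and grey shading below the highest per-array floor of probes well above background. Parp14 and Gbp7 moved out of the shaded range in knockdown, and Isg15 lay at 5.82 to 5.86 there against 4.47 to 4.58 in control.

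By the brightest probe of each gene, the ISG15 system was higher in knockdown at each step that was measured, though not always beyond the minimum fold. The other Herc6 probe, given below, showed no rise. Isg15 encodes a ubiquitin-like protein that is conjugated to other proteins, and Uba7, Ube2l6 and Herc6 encode the activating enzyme, the conjugating enzyme and the ligase of this pathway in mouse. Usp18 encodes the protease that removes Isg15 and also damps type I interferon receptors. By their brightest probes, all 5 genes had an adjusted p below 0.05 with higher signal on every knockdown array. Of them 2, Isg15 and Uba7, passed the minimum fold (40%, against 3.91% of all genes tested). By adjusted p alone, 15.7% of all genes tested were higher and 15.8% were lower. All 3 knockdown arrays lay above all control arrays for 27.7% of all genes tested.

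Isg15 signal (probe A_55_P2103698) was 4.58, 4.53 and 4.47 on the control arrays and 5.86, 5.83 and 5.82 on the knockdown arrays. In linear units these were intensities of 16700 to 18000 in control and 40700 to 43400 in knockdown. The groups were far apart, and the change of 1.31 (SE 0.048, limma adjusted p 0.000332) was a 2.47-fold rise. The other Isg15 probe changed by 1.46. Uba7 was -2.98, -2.95 and -2.80 in control and -1.67, -2.04 and -1.72 in knockdown, a change of 1.10 (SE 0.12, limma adjusted p 0.00345). The groups did not overlap, and knockdown array 2 was the lowest of its group.

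Ube2l6 was 0.28, 0.43 and 0.30 in control and 0.85, 0.83 and 0.79 in knockdown. Herc6 was -1.26, -1.29 and -1.29 in control and -0.80, -0.87 and -0.79 in knockdown. Both shifted by less than 1.5-fold, with changes of 0.48 (limma adjusted p 0.00496) and 0.46 (limma adjusted p 0.00257), and the other Herc6 probe changed by -0.03 (limma adjusted p 0.890). Usp18 was -1.61, -1.66 and -1.63 in control and -1.38, -1.40 and -1.48 in knockdown, a change of 0.22 (limma adjusted p 0.0297). The removing enzyme showed the smallest difference of the 5.

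Of the 5 ADP-ribosylation genes, Parp14 and Parp12 rose (40%, against 3.91% of all genes tested). Parp14 encodes a mono-ADP-ribosyltransferase of the macro-domain type. Its signal (probe A_51_P514712) was -6.17, -6.08 and -6.13 on control arrays, none of them well above background, and -3.52, -3.65 and -3.31 on knockdown arrays. For such a probe the fold is taken against a floor, and Parp14 was 6.17-fold higher in knockdown by that measure (limma adjusted p 0.00034). Each control array was raised to the faintest signal that still counted as well above background there, if the probe itself was fainter. On control arrays 2 and 3 Parp14 already lay above that floor, so this fold holds no margin for noise and is not a lower limit. Normexp background correction, which adds 50 units to every signal and so compresses dim probes by construction, gave a change of 0.78 to 0.83 for Parp14, still called.

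Parp12, a zinc-finger relative of Parp14, was -4.01, -4.21 and -3.79 in control and -3.32, -3.17 and -3.34 in knockdown. It rose by 0.73 (SE 0.12, limma adjusted p 0.0133), but without control array 1 its limma adjusted p was 0.0523 and with the slide row as a block it was 0.111. Normexp gave a Parp12 change of 0.25 to 0.31, which was not called. Dtx3l and Parp9 encode a ubiquitin ligase and an ADP-ribosyltransferase that work as a complex, and with Parp14 they are neighbours in the genome. Dtx3l was -0.63, -0.57 and -0.56 in control and -0.16, -0.13 and -0.25 in knockdown. Parp9 was -0.42, -0.46 and -0.39 in control and 0.02, -0.01 and -0.08 in knockdown. The partners shifted by nearly the same amount, 0.41 (SE 0.052, limma adjusted p 0.00586) and 0.40 (SE 0.049, limma adjusted p 0.00511), both below the minimum fold. Parp10 was 4.33, 4.18 and 4.05 in control and 4.65, 4.64 and 4.60 in knockdown, a change of 0.44 (limma adjusted p 0.0167). All 5 genes of this role were higher on every knockdown array than on any control array, as were 27.7% of all genes tested.

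Guanylate-binding proteins and immunity-related GTPases (IRG) act on the vacuoles of intracellular pathogens. Of their 5 genes on the list, 3 rose (60%, against 3.91% of all genes tested). Gbp7 (probe A_51_P463846) was -6.26, -6.25 and -6.37 in control, with no array well above background, and -3.82, -4.44 and -4.35 in knockdown. Against the same kind of floor it was 4.03-fold higher in knockdown (limma adjusted p 0.00181), again with no margin for noise. Gbp3, the next gene on the chromosome, was -4.20, -4.45 and -4.46 in control and -3.13, -3.03 and -3.25 in knockdown, a change of 1.23 (SE 0.10, limma adjusted p 0.00175). Both neighbours have an ISRE core shortly before the start, printed in capitals above. Normexp gave 0.41 to 0.46 for Gbp7, no longer called, and 0.57 to 0.62 for Gbp3, called only with 75th percentile scaling.

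Igtp, also known as Irgm3, was -2.20, -2.10 and -2.07 in control and -0.69, -0.73 and -0.78 in knockdown. The rise of 1.39 (SE 0.055, limma adjusted p 0.000384) was many times the spread within either group. Its relative Irgm1 was 0.84, 0.82 and 0.92 in control and 1.43, 1.37 and 1.36 in knockdown, a change of 0.53 (SE 0.050, limma adjusted p 0.00256) that fell short of 1.5-fold. Gbp2 was -5.87, -6.04 and -6.13 in control and -5.80, -5.68 and -5.74 in knockdown. These values lay near background, and the change of 0.27 had a limma adjusted p of 0.0743. The Gbp, Ifit, Ifitm and interferon alpha genes belong to families of similar sequence, and cross-hybridization of their probes was not tested.

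The IFIT genes encode tetratricopeptide proteins that bind viral RNA, and their probes lay near background. Ifit2 was -6.79, -6.47 and -5.60 in control, where only 1 array was well above background, and -5.01, -4.31 and -4.37 in knockdown, where all 3 were. It rose by 1.73 (SE 0.37, limma adjusted p 0.0281). Limma adjusted p became 0.0769 without control array 1, 0.0904 without control array 2, 0.0873 without knockdown array 2, 0.0891 without knockdown array 3 and 0.2 with the slide row as a block, and normexp gave a change of 0.34 to 0.39. Ifit1 was -6.69, -7.26 and -7.24 in control and -6.86, -5.58 and -5.24 in knockdown. Its groups overlapped, with knockdown array 1, in row 1 of the slide, within the control range. No control array was well above background, and neither was knockdown array 1. The fold of 1.26 against the floor takes that array as measured and is not a lower limit, and Ifit1 was not called (limma adjusted p 0.139). Without knockdown array 1 the limma adjusted p was 0.0212. Ifit3 stood well above background on no array, and no fold is given for it.

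Among the nucleotide and RNA effectors 3 of 6 rose (50%, against 3.91% of all genes tested). Samd9l encodes an antiviral factor that restrains translation. It was -4.15, -4.12 and -4.35 in control and -3.38, -2.92 and -2.29 in knockdown, a change of 1.34 (SE 0.28, limma adjusted p 0.0274) with wide spread among the knockdown arrays. The other Samd9l probe stood well above background on no control array and was 3.45-fold higher in knockdown against the floor (limma adjusted p 0.00532). For the brighter probe, limma adjusted p was 0.0825 without control array 1, 0.0767 without control array 2, 0.0830 without control array 3, 0.0766 without knockdown array 2 and 0.157 with the slide row as a block, and the change in row 1 alone was 0.83.

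Oasl2, a member of the oligoadenylate synthetase-like family, was -2.26, -2.41 and -2.36 in control and -1.49, -1.39 and -1.52 in knockdown. It rose by 0.88 (SE 0.064, limma adjusted p 0.00134). Rsad2 encodes viperin, which makes a chain-terminating nucleotide, and its neighbour Cmpk2 encodes a nucleotide kinase. Rsad2 was -4.02, -3.86 and -3.81 in control and -3.09, -3.10 and -3.22 in knockdown, a change of 0.76 (SE 0.076, limma adjusted p 0.00295). Under normexp the Rsad2 change was 0.36 to 0.42 and was not called. Cmpk2 was -1.08, -1.21 and -1.14 in control and -0.83, -0.98 and -1.05 in knockdown, a change of 0.19 (limma adjusted p 0.137), while its other probe changed by 0.47 (limma adjusted p 0.0121). The difference between the neighbours was not tested. Adar, which deaminates adenosines in double-stranded RNA, changed by -0.22 (limma adjusted p 0.0226), and the helicase gene Helz2 by -0.08 (limma adjusted p 0.444).

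Membrane restriction factors went the other way or did not pass the test. Bst2 encodes tetherin, which holds budding virus at the cell surface. Its signal (probe A_51_P169693) was 1.45, 1.54 and 1.48 in control and 0.34, 0.36 and 0.41 in knockdown. The fall of 1.12 (log2 change -1.12, SE 0.047, limma adjusted p 0.000408) was opposite in direction to that of the other called members. The Bst2 promoter, printed above, holds overlapping ISRE cores as that of Isg15 does. Ifitm1, Ifitm2 and Ifitm3, neighbours that encode proteins blocking virus fusion, had groups that overlapped. Ifitm3 was 3.96, 3.81 and 3.35 in control and 3.46, 3.36 and 3.14 in knockdown, a change of -0.39 (SE 0.19, limma adjusted p 0.206). Ifitm2 was between 2.89 and 3.03 on all arrays and changed by 0.04 (limma adjusted p 0.632). Ifitm1 lay near background and changed by 0.49 (SE 0.55, limma adjusted p 0.575). The Ifitm1 change was -0.07 without control array 1, and the Ifitm2 change was -0.08 under median scaling.

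**Figure D3:**
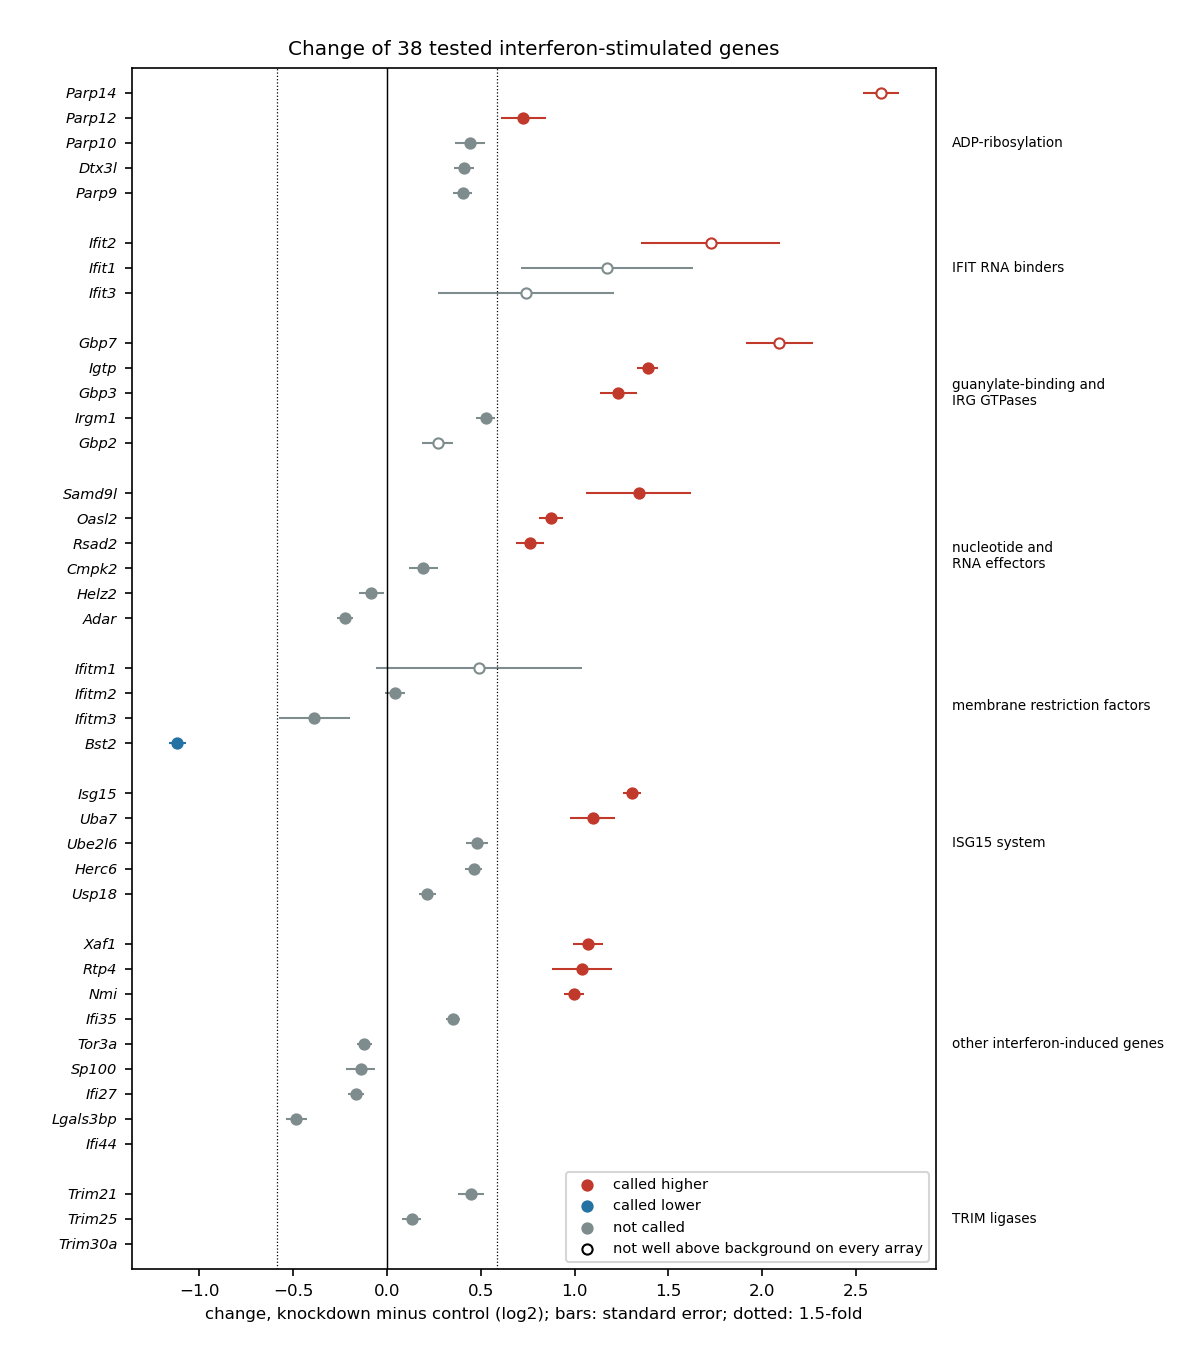
Change, knockdown minus control (x axis, log2), of 38 tested members (y axis, grouped by role) with bars for the standard error, dotted lines at 1.5-fold, and open points where a probe failed to stand well above background on every array. Ifi44 and Trim30a were not tested. Of the 15 called members, 14 lay to the right and Bst2, at -1.12, lay to the left.

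The remaining interferon-induced genes were divided. Xaf1, which encodes an antagonist of a caspase inhibitor, was -3.40, -3.49 and -3.28 in control and -2.31, -2.42 and -2.23 in knockdown, a change of 1.07 (SE 0.080, limma adjusted p 0.00138). Its other probe stood well above background on no array and changed by 0.27. Rtp4, which encodes a receptor transporter protein, was -4.87, -4.33 and -4.50 in control and -3.44, -3.65 and -3.49 in knockdown, a change of 1.04 (SE 0.16, limma adjusted p 0.00975). The Rtp4 change was 0.44 to 0.50 under normexp and was not called there. Its limma adjusted p was 0.0692 with the slide row as a block and 0.058 with the replicate block.

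Nmi and Ifi35 encode partner proteins that bind each other. Nmi was 0.39, 0.41 and 0.48 in control and 1.49, 1.42 and 1.36 in knockdown, a change of 1.0 (SE 0.055, limma adjusted p 0.000667). Ifi35 was 2.12, 2.10 and 2.10 in control and 2.44, 2.47 and 2.46 in knockdown. Its groups were also apart, but the change of 0.35 (SE 0.038, limma adjusted p 0.00378) was below the minimum fold. Lgals3bp, which encodes a secreted glycoprotein, was 2.12, 1.99 and 2.04 in control and 1.59, 1.60 and 1.5 in knockdown, a change of -0.48 (limma adjusted p 0.00477), also below the minimum fold. Ifi27 changed by -0.17 (limma adjusted p 0.0426), Sp100 by -0.14 (limma adjusted p 0.266) and Tor3a by -0.12 (limma adjusted p 0.0973). The TRIM ligase genes Trim21, for an antibody receptor in the cytosol, and Trim25, for a ligase that acts on RIG-I, changed by 0.45 (limma adjusted p 0.0102) and 0.13 (limma adjusted p 0.129).

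Probes of the members that rose were mostly dim. Of the 17 tested members with a mean control signal under -2, 12 rose (70.6%), against 376 of 5907 such genes (6.37%) in the whole series. Isg15 and Nmi were the only members with a control signal above 0 that rose, of 15 tested. In slide row 1 alone, which leaves knockdown array 1 against the 3 control arrays, 30 members again had a positive change and 8 a negative one. There the 14 members that rose changed by 0.68 (Parp12) to 2.60 (Parp14), and Bst2 changed by -1.14. The lone knockdown array is assumed there to vary like the controls. By limma no member was called in that comparison, with 23 members higher (15.8% of all genes tested) and 2 lower (13.9% of all genes tested) at an unadjusted p below 0.05.

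**Figure D4:**
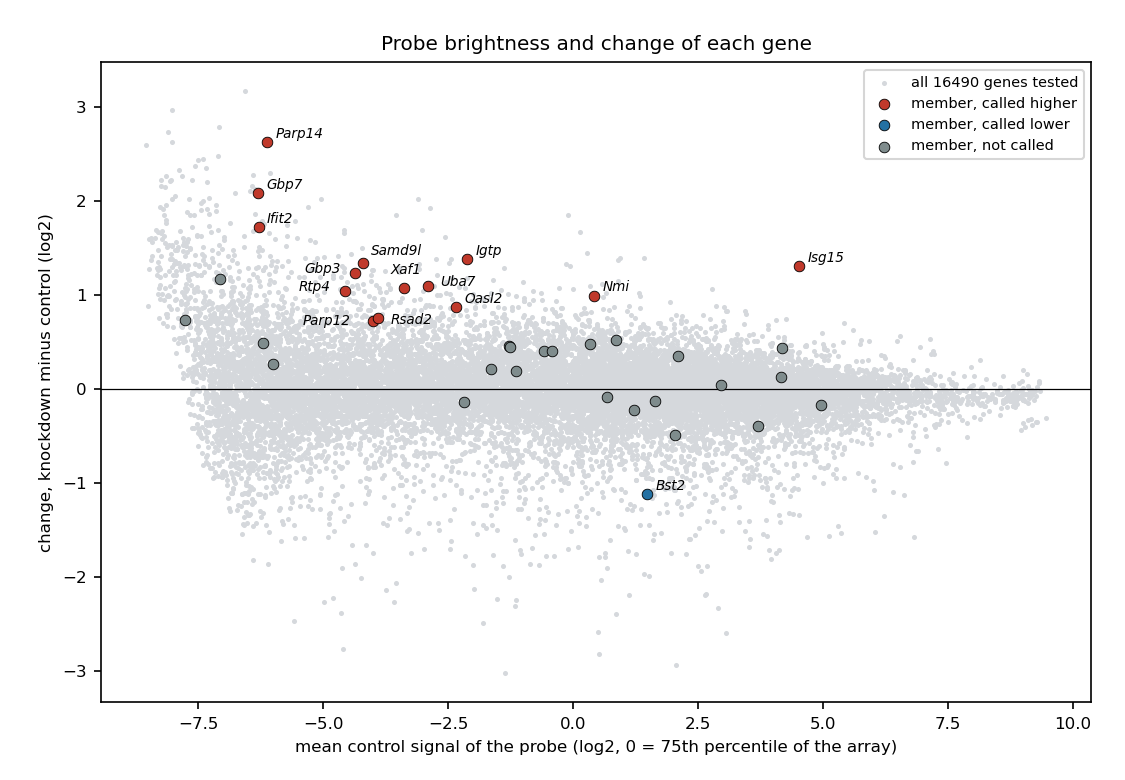
Mean control signal of the probe (x axis, log2, 0 at the 75th percentile of the array) and change, knockdown minus control (y axis, log2), for all 16490 genes tested (pale points) and the 38 tested members (large points, coloured by call). Among the 14 members that rose, 12 have a control signal under -2, and Isg15 and Nmi are the exceptions.

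The rest of the interferon pathway was read from lists of 73 genes, of which 59 were tested. For the counts that follow, 3.91% of all genes tested were called higher and 5% lower. Of 18 interferon ligand genes 9 were tested, and limma called 0, with a median change of -0.10. Largest were the changes of Ifna11 (0.46, limma adjusted p 0.0706) and Ifna7 (-0.45, limma adjusted p 0.127). Of 14 ligand genes with a probe, 8 stood well above background on all 6 arrays, among them Ifna1, Ifna5 and Ifnl3. The probes of 5 did so on no array, among them Ifng and Ifnb1, which encodes interferon beta. Among receptors and kinases, 2 of 8 fell and none rose, with a median change of -0.21. The receptor subunit genes Ifngr1 and Ifnar1 fell by 0.80 (log2 change -0.80, limma adjusted p 0.00109) and by 0.60 (log2 change -0.60, limma adjusted p 0.00301), though Ifnar1 was not called without control array 1 or without knockdown array 3, under normexp or with the slide row as a block. Averaging its probes gave an Ifnar1 change of -0.12 (limma adjusted p 0.0962). Among STATs, interferon regulatory factors and brakes, Stat3 alone of 13 was called, and lower, with a change of -1.12 (limma adjusted p 0.000375). Irf9 changed by 0.10 (limma adjusted p 0.281) and Irf7 by 0.73 (SE 0.23, limma adjusted p 0.0842), and the median of that list was 0.24.

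Sensors of foreign nucleic acid and their adaptors gave 5 higher of 18 tested (27.8%, against 3.91% of all genes tested) and none lower. Their median change was 0.26. Ifih1 (MDA5) rose by 1.19 (SE 0.18, limma adjusted p 0.0107), Ddx58 (RIG-I) by 0.86, Myd88 by 0.85 and Eif2ak2 (PKR) by 0.83, and the DNA sensor gene Ifi204 by 0.68. With the slide row as a block Ifih1, Eif2ak2 and Ifi204 were not called (limma adjusted p 0.0711, 0.0592 and 0.0837). Normexp gave 0.42 to 0.47 for Ifih1 and 0.38 to 0.42 for Ifi204, neither called, Ifi204 was not called under median scaling, and Ddx58 was not called when its probes were averaged (limma adjusted p 0.0615). Class I antigen presentation genes were split, with a median change of 0.13 over 11 tested. The immunoproteasome subunit genes Psmb9 and Psmb8 rose by 0.87 and 0.74. The peptidase gene Erap1 and the class I heavy chain gene H2-K1 changed by -1.02 and -0.93, and both were called lower, although normexp gave -0.46 to -0.40 for Erap1, which was not called.

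Markers of other cell types were read beside these results. The summed linear signal of 10 macrophage and leukocyte probes was 10.5 to 12.1 times the 75th percentile in control and 10.4 to 12.0 times in knockdown. None of the 9 tested was called by limma. By limma adjusted p below 0.05 alone, none was higher and 1 was lower (Ptprc, change -0.52), against 15.7% and 15.8% of all genes tested. Of the 10 probes 6 were well above background on all 6 arrays, among them those of Itgam, Csf1r and Cd3e. Those named were the brightest and made up most of the sum, which says little of the dimmer probes. Lyz2 stood well above background on no array, and Aif1 and Tyrobp did so on 1 control array each and on no knockdown array. For 9 fibroblast and endothelial probes the sum was 13.9 to 15.5 in control and 12.3 to 13.4 in knockdown. Nearly all of it came from Kdr, with a normalized signal of 3.75 to 3.91 in control and 3.56 to 3.69 in knockdown. Of these 9 probes 6, that of Kdr among them, were well above background on all 6 arrays. Pdgfra was called higher (change 1.28) and Col1a1 lower (change -0.77), while Col3a1, Lum and Cdh5 did not stand well above background on any array. The part of other cell types in the changes of the members was not tested.

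Across the alternative processing settings, 7 of the 14 members that rose were called in each of the 18 that kept the call threshold and at least 5 arrays. These were Igtp, Isg15, Nmi, Oasl2, Parp14, Uba7 and Xaf1, and Bst2 was called lower in each of the 18.

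**Figure D5:**
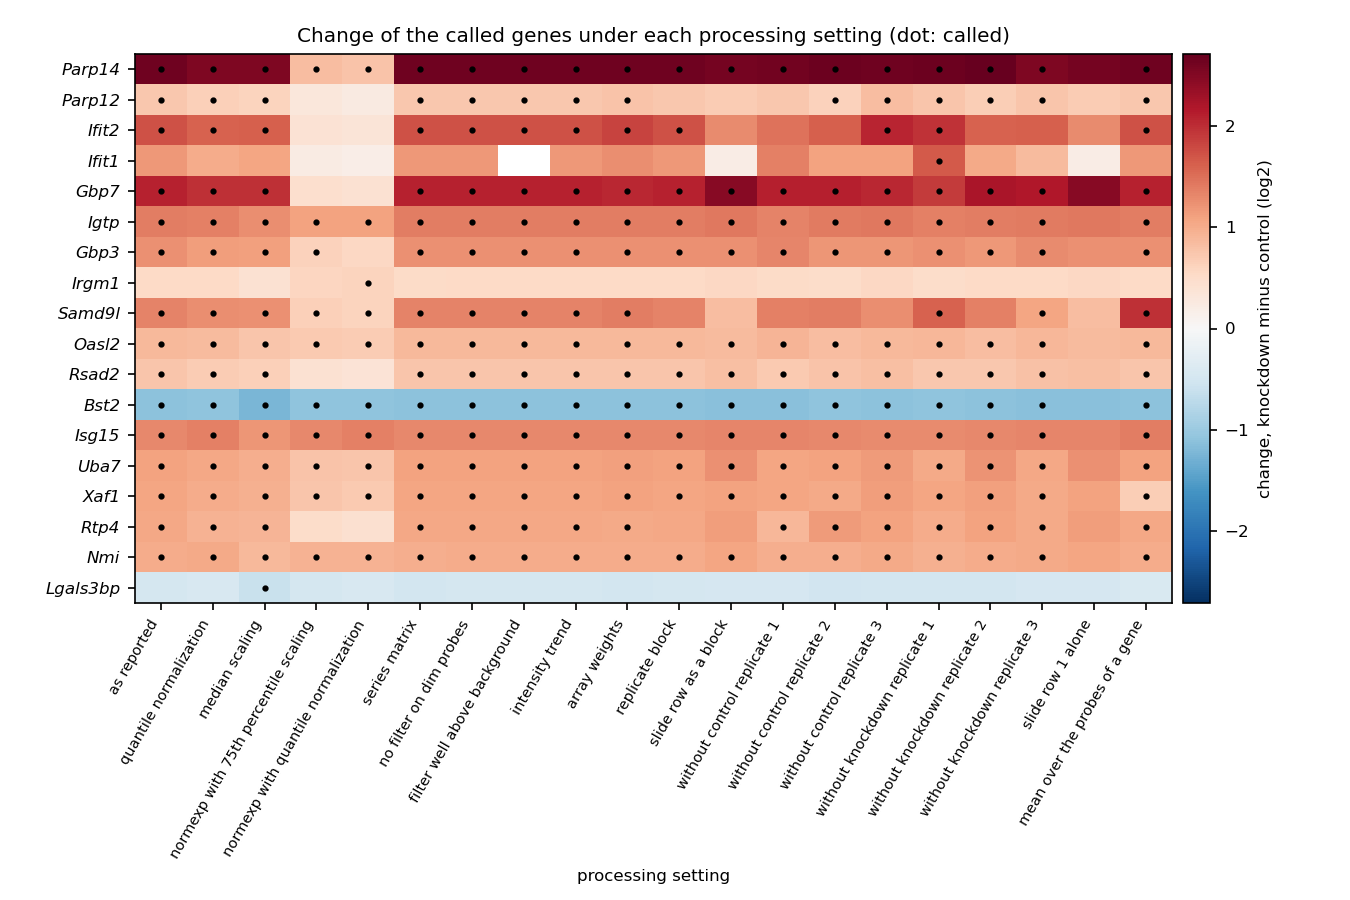
Change (colour, log2, knockdown minus control) of the 15 called members and of Ifit1, Irgm1 and Lgals3bp (rows) under the reported setting and each alternative (columns), with a dot where the gene was called and a blank where it was not tested. Igtp, Isg15, Nmi, Oasl2, Parp14, Uba7, Xaf1 and Bst2 have a dot in every column except slide row 1 alone, where no gene has one.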

How the data were processed

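Total RNA of neuro2a cells was measured on 3 control and 3 knockdown single-colour Agilent arrays, grouped by sample title. The authors read the scans with Feature Extraction 10.10.1.1 (Agilent). The deposited tables hold each spot's processed signal as a linear intensity after the software's background correction, with flags for outliers and for signal well above background. The deposited series matrix holds log2 values, which matched the scaling used here to within 0.00748 over 43557 probes, apart from a constant per probe.

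Control and outlier-flagged spots were left out, log2 signal minus the 75th percentile of the array was taken, and replicate spots were averaged. There were 55681 probes, of which 245 were incomplete and 42126 reached the 20th percentile of their array on all 3 arrays of a group. Accessions were matched to a RefSeq table (GRCm38.p6): 25869 of 26392 curated mRNA accessions matched. The array annotation uses another build, so only promoter coordinates are given. The brightest tested probe stood for each gene. Limma 3.58.1 (R 4.3.3, two-sided, no covariates) compared the groups, and p-values were adjusted by Benjamini-Hochberg over all probes tested. On simulated data for this comparison 57% of probes changed by 1 log2 unit and 79% of those changed by 2 were called, and the number of arrays limits the precision.

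All 42 members are named, and of the other lists the called genes, up to 4 a list. Uncalled list genes and Ifi204 were chosen after their values were seen. The members and lists were chosen with earlier results of these data known. Alternatives were other scalings, normexp (offset 50, on median spot and background signals, as the planned mean signal was not used here), the series matrix, filters, thresholds, an intensity trend, array weights, blocks for replicate number and slide row, averaged probes and leaving out each array. Slide row 1 alone was chosen after seeing the data.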

Additional observations from a re-analysis of the deposited data

How the results depend on the processing

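Of the members called higher, 14 as reported, 9 were called under normexp with 75th percentile scaling and 9 under normexp with quantile normalization, 23 with no minimum fold, and 0 in slide row 1 alone (23 at an unadjusted p below 0.05, against 15.8% of all genes tested). With the slide row as a block 10 were called, the calls of Ifit2, Parp12, Rtp4 and Samd9l being lost. Leaving out each array gave 11 to 15. The count called lower, 1 as reported, was 2 under median scaling, where Lgals3bp was added, 4 with no minimum fold, 0 in slide row 1 alone (2 at an unadjusted p below 0.05, against 13.9%), and 1 without each array. Median scaling moved the median of all genes by -0.12. The median change of the members, 0.47, was 0.35 under median scaling and under both normexp settings and 0.46 to 0.48 without each array. Beside the member and list counts as reported, 3.91% of all genes tested were called higher and 5% lower. With no minimum fold these shares were 15.7% and 15.8%. Pathway list genes called higher, 7 as reported, were 4 with the slide row as a block, 18 with no minimum fold, 1 at a fold above 2, 0 in row 1 alone, and 7 without each array. Those called lower, 5 as reported, were 3 under both normexp settings, 12 with no minimum fold, 2 at a fold above 2, 0 in row 1 alone, and 4 to 7 without each array. Nfya and Nfyc changed by -0.80 to -0.72 and -1.83 to -1.79 without each array, and by -0.83 (limma adjusted p 0.0581) and -1.85 (limma adjusted p 0.0515) in row 1 alone. Same-numbered arrays correlated by 0.002 to 0.067 in their deviations from the group means. With so few arrays a group, this check cannot tell whether same-numbered samples were prepared together. With the replicate block 11 members were called higher and 1 lower, the calls of Parp12, Rtp4 and Samd9l being lost. Gbp2 changed by -0.01 under normexp with quantile normalization. Row 1 alone has fewer samples, and the causes of the other changes were not tested. Probes near background, which include Parp14, Gbp7, Ifit1 and Ifit2, are where signal limits precision.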
